A study of Mus musculus with 16 samples.

Results

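Crebbp, which encodes CBP and for which cbp+/- mice are heterozygous deficient, lies on mouse chromosome 16, and the genes described here are 10 of its neighbours: Zfp263, Slx4, Dnase1 and Trap1 on the side toward the start of the chromosome, and Adcy9, Srl, Tfap4, Glis2, Mgrn1 and Ercc4 on the other side. They were taken by name from the probe sets that carry a single gene symbol, 1 probe set each, out of 19935 genes measured, and all lie within 10 Mb of Crebbp on mouse assembly GRCm38.p6. Another 84 genes in that window were measured and were not listed. The 10 were picked with genotype differences of these same arrays already known, to look at strain variants that flank the targeted gene. Their genotype differences are therefore given as a description. Counts of the 10 by p in a genotype comparison are part of that description and test nothing.

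The arrays read hippocampal RNA of female mice from an F2 of C57BL/6J and DBA, 3 months old by their labels. Each array held equal amounts of RNA from 4 animals. There were 5 arrays labelled cbp+/- (heterozygous for CBP deficiency) and 5 of wild-type littermates from standard cages, and 3 labelled cbp+/- and 3 wild-type after 2 weeks of environmental enrichment, a large box with running wheels, tubing and toys. Arrays are called by genotype, housing and number, so that CBP_EE_3 is enrichment array number 3 labelled cbp+/- and SC stands for standard cages. In such tissue RNA, fewer cells of a type and less RNA per cell cannot be told apart. Levels below are log2 of the deposited intensity, and differences are on the log2 scale.

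A targeted allele is inherited together with the stretch of chromosome around it. In crosses between inbred strains, heterozygotes and their wild-type littermates can then differ at linked genes in strain of origin as well as at the targeted gene, either in true expression or in how well a probe matches the transcript. CBP, the Crebbp product, is an acetyltransferase that the transcription factor CREB recruits to cAMP response elements (CRE) in promoters. Adcy9, 1 of the 10, makes cAMP, the messenger upstream of CREB. The other neighbours serve DNA repair or DNA breakdown, transcription, mitochondria, protein degradation or calcium storage and share a location rather than a pathway.

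Of the 10 genes, Zfp263, Trap1 and Ercc4 had the largest genotype differences averaged over both housings, each upward on arrays labelled cbp+/- and each at most 1.14-fold. Zfp263 was the only 1 of the 10 that was higher on the array labelled cbp+/- in all 8 same-numbered pairs, as 1.02% of all probe sets were. The choice of genes used pair differences too. The other 7 genes had averaged differences between -0.089 and 0.046. By adjusted p, 0 of the 10 passed 0.05 in any genotype comparison, against 0 of 21780 probe sets in all (0% in standard cages, 0% in enrichment and 0% averaged). The choice of genes used these differences, so the count is no test of the 10. The median averaged difference was 0.0014 over the 10 and -0.0095 over all probe sets. Above 0 were 5 of the 10, against 43.3% of all probe sets. At an unadjusted p under 0.05 there was 1 of 10 in standard cages (higher), 3 of 10 in enrichment (all higher) and 3 of 10 averaged (all higher), numbers that the choice of genes used. Over all probe sets these shares were 0.987% in standard cages (0.5% higher, 0.487% lower), 5.23% in enrichment (1.16% higher, 4.07% lower) and 3.91% averaged (1.41% higher, 2.5% lower).

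The promoters of these 3 genes are shown because they belong to the largest differences and because CBP acts at CRE. They run from 250 bases before to 50 bases after the RefSeq start of the gene on GRCm38.p6, 5′ to 3′. Capitals mark the CRE half-site TGACG or its reverse complement CGTCA, and both together form the full CRE TGACGTCA.
Zfp263 (chr16:3743849-3744148, plus strand): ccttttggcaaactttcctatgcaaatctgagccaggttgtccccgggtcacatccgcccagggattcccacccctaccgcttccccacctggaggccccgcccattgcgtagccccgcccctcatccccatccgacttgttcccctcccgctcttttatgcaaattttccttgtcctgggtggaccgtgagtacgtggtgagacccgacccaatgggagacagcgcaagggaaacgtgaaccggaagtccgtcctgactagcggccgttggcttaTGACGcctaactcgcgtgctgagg
Trap1 (chr16:4077761-4078060, minus strand): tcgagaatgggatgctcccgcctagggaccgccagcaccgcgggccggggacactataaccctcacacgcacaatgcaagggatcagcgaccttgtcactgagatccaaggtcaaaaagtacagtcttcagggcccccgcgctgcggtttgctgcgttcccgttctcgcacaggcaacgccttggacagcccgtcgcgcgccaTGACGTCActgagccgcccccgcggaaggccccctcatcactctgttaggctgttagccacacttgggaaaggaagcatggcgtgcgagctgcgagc
Ercc4 (chr16:13109486-13109785, plus strand): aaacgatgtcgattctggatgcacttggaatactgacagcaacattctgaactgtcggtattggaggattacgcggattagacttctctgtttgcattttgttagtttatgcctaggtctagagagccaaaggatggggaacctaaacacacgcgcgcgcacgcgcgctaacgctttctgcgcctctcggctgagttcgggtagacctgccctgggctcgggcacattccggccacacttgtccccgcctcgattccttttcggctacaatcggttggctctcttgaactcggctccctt
The Trap1 promoter held 1 full CRE, a motif found on either strand in 1.79% of 32851 RefSeq promoter windows of the same length. Its 2 half-sites are both part of that CRE. The Zfp263 window held 1 half-site, which 20.8% of all windows hold, and the Ercc4 window held 0. Promoter windows were found for 7 of the 10 genes (8 windows), of which 1 held a full CRE and 3 a half-site, those of Zfp263, Trap1 and Adcy9. These matches describe letters in a window and say nothing about binding.

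The Crebbp signal does not follow a loss of the gene. Its level was 0.0101 to 0.2365 higher on the array labelled cbp+/- in the 8 pairs, with means of 9.57 ± 0.22 on CBP_SC and 9.43 ± 0.18 on WT_SC arrays (SD, n = 5 each), and 9.36 ± 0.025 on CBP_EE and 9.26 ± 0.082 on WT_EE arrays (n = 3 each). Where the probes lie relative to the targeted part of the gene is not known here, so the level neither bears out nor refutes a label. Every genotype direction below therefore rests on the labels alone. Hippocampal neuron markers were present, with 11 of 12 above the median brightness of the tested probe sets. The mean intensity of 11 measured choroid plexus markers, a tissue next to the hippocampus, was highest on CBP_SC_3, at a log2 of 9.48 against 5.89 to 7.84 on the other arrays. Only 2 of the 11 were above the median brightness, with Ttr the brightest at percentile 85.2. A mean of intensities leans on the brightest markers. The 12 skeletal muscle markers had a mean of 5.77 to 6.07 on the same scale, with 1 of 12 above the median brightness. Arrays also fell into 4 sets by overall similarity. Set 1 held numbers 1 and 2 of all groups, set 2 the number 3 and set 3 the number 4 arrays of standard cages, and set 4 the number 5 arrays of standard cages with the number 3 arrays of enrichment. The sets hold both genotypes equally. Within a housing, sets 2, 3 and 4 hold 1 array of each genotype, so differences given for them compare single arrays and restate pair differences where they are between genotypes.

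Slx4 and Ercc4 act on DNA. Slx4 encodes a scaffold that gathers structure-specific nucleases, and Ercc4 encodes XPF, the catalytic subunit of a nuclease that works in nucleotide excision and crosslink repair. Ercc4 lies farthest from Crebbp of the 10, with a gap of 8.9 Mb. Its log2 level was 7.34, 7.23, 7.42, 7.30 and 7.22 on CBP_SC_1 to CBP_SC_5, against 7.26, 7.28, 7.17, 7.30 and 7.06 on WT_SC_1 to WT_SC_5. In enrichment it was 7.17, 7.25 and 7.20 on CBP_EE_1 to CBP_EE_3, against 6.91, 7.13 and 6.86 on WT_EE_1 to WT_EE_3. The groups overlapped in standard cages, while all 3 CBP_EE arrays lay above all 3 WT_EE arrays, as 3.53% of all probe sets did (6.85% lay below). Of the 10 genes, 2 (Ercc4 and Trap1) separated the groups in enrichment and 0 in standard cages, where 0.174% of all probe sets lay above and 0.0872% below. The choice of genes used these genotype differences, so nothing is read from the 2 counts. The difference was 0.088 (SE 0.061) in standard cages, with 3 of 5 pairs higher, and 0.24 (SE 0.079) in enrichment, with 3 of 3 pairs higher. By array set, the enrichment difference was 0.19 in set 1 and 0.33 in set 4. It was 0.076 with array weights, estimated per array from its scatter, and the averaged difference was then 0.058, against 0.16 (SE 0.050) unweighted. Leaving out WT_SC_5 gave 0.049 in standard cages.

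Slx4 lies 77.5 kb from Crebbp and varied more between arrays than between genotypes. Levels were 6.88, 6.83, 7.17, 7.06 and 6.56 on CBP_SC_1 to CBP_SC_5, against 6.86, 6.92, 6.91, 6.93 and 6.72 on the WT_SC arrays. They were 6.97, 6.89 and 6.75 on the CBP_EE arrays, against 6.85, 7.01 and 6.70 on the WT_EE arrays. The CBP_SC arrays held both the highest and the lowest value of all 16. Differences were 0.034 (SE 0.098) in standard cages and 0.019 (SE 0.13) in enrichment, and 5 of 8 pairs were higher. With single arrays left out, the standard-cage value ran from -0.034 without CBP_SC_3 to 0.12 without CBP_SC_5, and the enrichment value from -0.057 without WT_EE_3 to 0.097 without WT_EE_2, so neither kept its sign. Dnase1, which encodes a secreted enzyme that cuts DNA, had a dim probe set, at percentile 18.3 of all those tested. In its annotation it overlaps the end of Trap1 by 54 bases. Its values spanned 5.07 to 5.31 over all arrays. Group means were 5.16 ± 0.065 on CBP_SC and 5.22 ± 0.049 on WT_SC arrays, and 5.25 ± 0.088 on CBP_EE and 5.29 ± 0.043 on WT_EE arrays. Dnase1 was lower on the array labelled cbp+/- in 7 of 8 pairs, by an averaged -0.050 (SE 0.036). Without CBP_EE_3 the average was -0.024 and the enrichment difference, -0.039 with all arrays, turned to 0.011. Quantile normalization turned that difference to 0.014. Of 14 listed structure-specific nucleases and partners, Slx4 and Ercc4 included, 12 were measured. Their median averaged genotype difference was 0.032, against -0.0095 over all probe sets. Above 0 were 9 of the 12, against 43.3% of all probe sets, and 0 passed an adjusted p of 0.05. Mus81, a crosslink-repair nuclease, had the largest of them at 0.17 (SE 0.14).

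Zfp263, Tfap4 and Glis2 encode DNA-binding transcription factors: a zinc finger protein, a basic helix-loop-helix protein that binds E-boxes, and a Krüppel-like zinc finger protein. Zfp263, which lies 331 kb from Crebbp, measured 6.63, 6.63, 6.72, 6.53 and 6.76 on CBP_SC_1 to CBP_SC_5, against 6.54, 6.44, 6.61, 6.33 and 6.52 on WT_SC_1 to WT_SC_5. On CBP_EE_1 to CBP_EE_3 it measured 6.61, 6.67 and 6.82, against 6.45, 6.62 and 6.40 on WT_EE_1 to WT_EE_3. Single arrays of the genotypes overlapped in both housings, and each pair kept 1 order. Pair differences ran from 0.0525 in the second enrichment pair to 0.4172 in the third, a sign shared by all 8 pairs that 1.02% of all probe sets showed upward and 0.927% downward. The difference was 0.16 (SE 0.065) in standard cages and 0.21 (SE 0.084) in enrichment, with an average of 0.19 (SE 0.053) or 1.14-fold. Within sets, standard-cage differences were 0.14, 0.11, 0.19 and 0.24 in sets 1 to 4, and enrichment differences were 0.10 in set 1 and 0.42 in set 4. With array weights, of which CBP_EE_1 had 8.63, WT_EE_2 had 6.68 and the other enrichment arrays under 1, the enrichment difference was 0.022. The averaged one was then 0.087.

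Tfap4 and Glis2 had lower means on arrays labelled cbp+/- in standard cages, with smaller differences in enrichment. Tfap4 measured 6.33, 6.20, 6.33, 6.28 and 6.35 on CBP_SC_1 to CBP_SC_5, against 6.27, 6.33, 6.58, 6.40 and 6.40 on WT_SC_1 to WT_SC_5. In enrichment it was at 6.46, 6.39 and 6.47 on the CBP_EE arrays, against 6.40, 6.41 and 6.36 on the WT_EE arrays. It was the 1 gene of the 10 whose difference changed sign between housings, at -0.097 (SE 0.052) in standard cages and 0.050 (SE 0.067) in enrichment. Glis2 measured 6.996, 7.19, 6.84, 7.16 and 7.01 on CBP_SC_1 to CBP_SC_5, against 7.17, 7.03, 7.34, 7.20 and 7.26 on WT_SC_1 to WT_SC_5. On the CBP_EE arrays it was at 7.12, 7.28 and 7.23, against 7.41, 7.13 and 7.14 on the WT_EE arrays. Differences were -0.16 (SE 0.079) in standard cages and -0.014 (SE 0.10) in enrichment, with 4 of 5 standard-cage pairs and 1 of 3 enrichment pairs lower. The lowest Glis2 value of all 16 arrays was on CBP_SC_3, the array with the highest choroid plexus level, and the part of that tissue in the value was not tested. The Glis2 standard-cage difference was -0.11 without CBP_SC_3, and the enrichment one turned to 0.077 without WT_EE_1. Of 9 GLIS, GLI and ZIC factors 8 were measured, Glis2 included, with a median averaged difference of -0.078 and 0 past the threshold. Below 0 were 6 of the 8, and 12348 of 21780 probe sets over all. Zic1 had the largest of these at 0.23 (SE 0.086).

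Trap1 is the nearest measured gene to Crebbp, with a gap of 3.49 kb, and encodes the mitochondrial member of the HSP90 chaperones. It measured 8.85, 8.82, 8.91, 8.75 and 9.01 on CBP_SC_1 to CBP_SC_5, against 8.78, 8.84, 8.81, 8.85 and 8.84 on WT_SC_1 to WT_SC_5. In enrichment it measured 8.98, 8.88 and 8.88 on CBP_EE_1 to CBP_EE_3, against 8.65, 8.79 and 8.38 on WT_EE_1 to WT_EE_3. The standard-cage groups overlapped, and in enrichment all 3 CBP_EE arrays were above all 3 WT_EE arrays, a difference that the choice of genes used. The difference was 0.042 (SE 0.067) in standard cages and 0.31 (SE 0.087) in enrichment, and 3 of 5 and 3 of 3 pairs were higher. WT_EE_3 held the lowest Trap1 value of all 16 arrays. Without it the enrichment difference was 0.19. Set 1 alone gave 0.21, and set 4 alone, which is the single pair of CBP_EE_3 and WT_EE_3, gave 0.50. With array weights it was 0.20, and the averaged difference was 0.11, against 0.17 (SE 0.055) unweighted. Without CBP_SC_5 the standard-cage difference was 0.0065. Of 4 HSP90 chaperones 3 were measured, and 0 passed the adjusted threshold. The cytosolic Hsp90aa1 differed by 0.058 (SE 0.071) and Hsp90b1 of the endoplasmic reticulum by 0.042 (SE 0.066), averaged over housings.

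Adcy9 encodes a membrane adenylyl cyclase. It measured 8.41, 8.34, 8.66, 8.76 and 8.27 on CBP_SC_1 to CBP_SC_5, against 8.42, 8.45, 8.64, 8.87 and 8.34 on WT_SC_1 to WT_SC_5. It measured 8.27, 8.26 and 8.25 on the CBP_EE arrays, against 8.38, 8.40 and 8.20 on the WT_EE arrays. The number 3 and 4 standard-cage arrays were the highest in both genotypes, and array sets held 91.2% of the variance of Adcy9, against a median of 38.9% over all probe sets, a share that is partly built in since the sets were clustered from these values. Differences were -0.058 (SE 0.11) in standard cages and -0.066 (SE 0.14) in enrichment, with 6 of 8 pairs lower. Without WT_SC_4 the standard-cage difference turned to 0.024. Without WT_EE_3 the enrichment difference was -0.13. Of the 10 adenylyl cyclases, all measured and Adcy9 included, 7 were below 0 by averaged genotype difference. Over all, 12348 of 21780 probe sets were below 0. The median of the 10 cyclases was -0.045, and 0 passed the threshold. Adcy5, a cyclase rich in striatum, had the largest at -0.13 (SE 0.11).

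Mgrn1 encodes an E3 ubiquitin ligase whose loss gives spongy brain degeneration in mice, and Srl encodes sarcalumenin, a calcium-binding protein of the muscle sarcoplasmic reticulum. Mgrn1 means were 9.43 ± 0.26 on CBP_SC and 9.40 ± 0.16 on WT_SC arrays, and 9.30 ± 0.15 on CBP_EE and 9.23 ± 0.24 on WT_EE arrays. Its lowest and highest levels were 8.95 on WT_EE_3 and 9.85 on CBP_SC_3, and array sets held 86.0% of its variance. Srl means were 6.46 ± 0.18 on CBP_SC and 6.47 ± 0.16 on WT_SC arrays, and 6.38 ± 0.13 on CBP_EE and 6.45 ± 0.037 on WT_EE arrays. Averaged genotype differences were 0.046 (SE 0.10) for Mgrn1 and -0.036 (SE 0.074) for Srl. With single arrays left out the Mgrn1 average ran from -0.023 without WT_EE_3 to 0.094 without WT_EE_2. For Srl it ran from -0.072 without CBP_SC_3 to -0.0059 without CBP_EE_3, and array weights turned it to 0.038. Of the 10 genes, 4 had their highest value on CBP_SC_3 (Slx4, Srl, Mgrn1 and Ercc4) and 4 their lowest on WT_EE_3 (Trap1, Adcy9, Mgrn1 and Ercc4). The share of all probe sets with their extremes on these arrays was not counted. Nothing particular to these genes is therefore read from the counts. WT_EE_3 and CBP_SC_3 also had the lowest array weights, at 0.261 and 0.326. The mean of 7 measured oligodendrocyte markers was lowest on WT_EE_3, at a log2 of 8.63, and was 9.45 on CBP_SC_3 and 9.51, its highest, on WT_SC_3. The part of these cells, and of choroid plexus on CBP_SC_3, in the values was not tested.

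**Figure D1:**
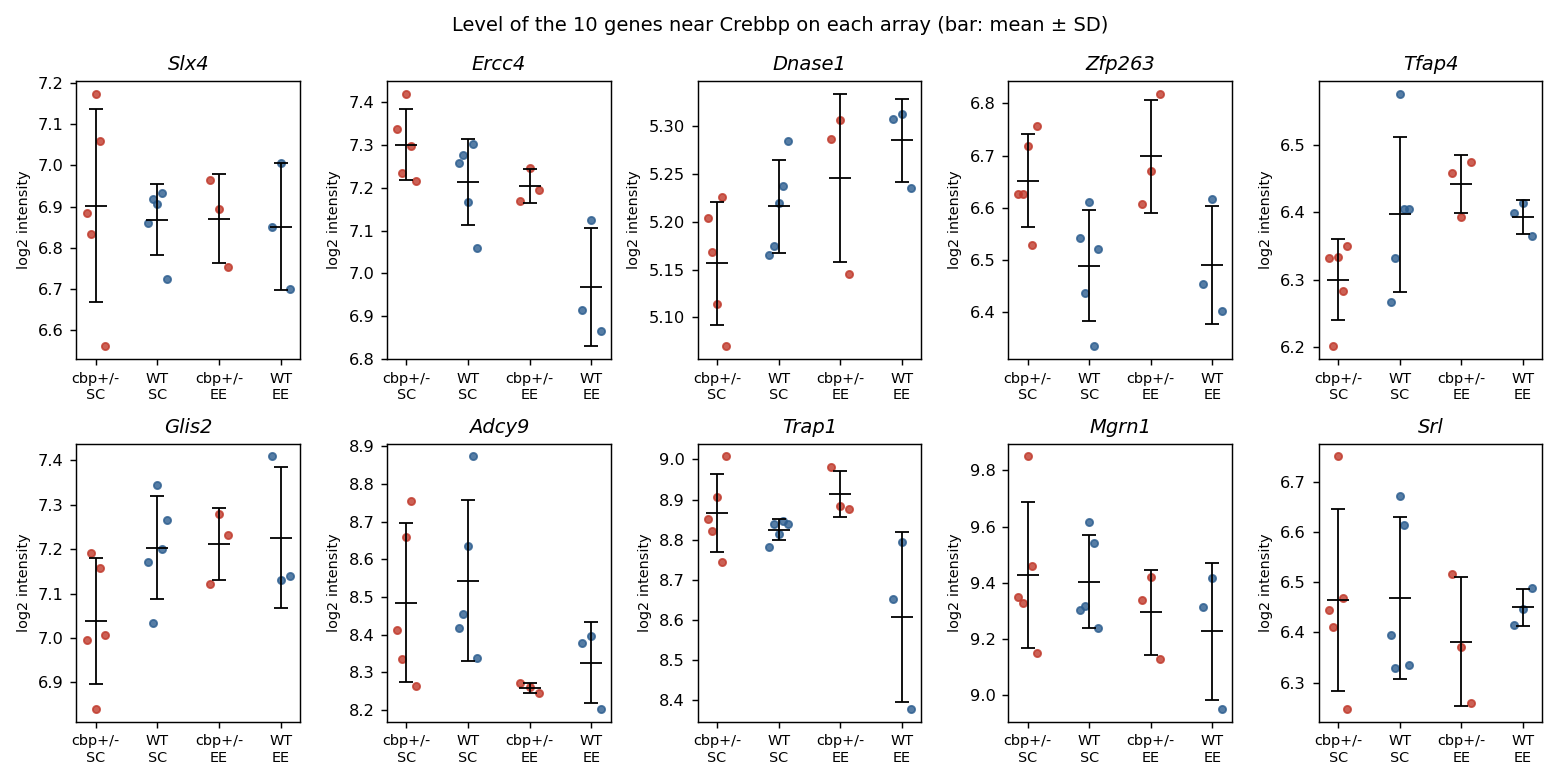
Log2 intensity (vertical axis) of each of the 10 genes on every array, with 1 point per array and bars for the mean ± SD of each group (n = 5 in standard cages, SC, and n = 3 in enrichment, EE; red for arrays labelled cbp+/-, blue for wild type). Vertical axes do not start at 0 and differ between genes; for Trap1 the CBP_EE arrays lie at 8.88 to 8.98 and the WT_EE arrays at 8.38 to 8.79.

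**Figure D2:**
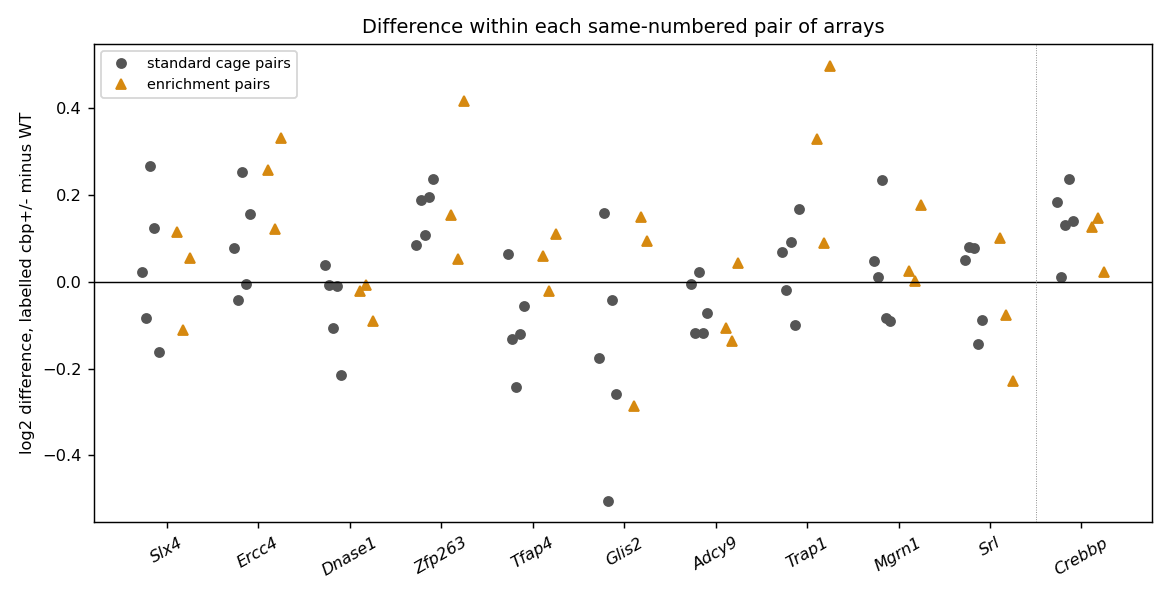
Log2 difference between the same-numbered arrays, labelled cbp+/- minus wild type, for the 10 genes and for Crebbp, with 5 standard-cage pairs (circles) and 3 enrichment pairs (triangles) per gene. Zfp263 and Crebbp are above 0 in all 8 pairs, as 1.02% of all probe sets are, and Dnase1 is below 0 in 7 of 8. The choice of the 10 genes used these differences.

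The 10 genes were set beside the rest of their neighbourhood. The window held 99 probe sets of 94 genes. On the side toward the start of the chromosome it held 13, all within 488 kb, and on the other side 86. By the size of the averaged genotype difference relative to its SE, Zfp263 ranked 1, Ercc4 ranked 2 and Trap1 ranked 3 among the 99. The other 7 ranked from 16 to 71, an order that the choice of genes used. By size alone these 3 ranked 4, 8 and 7, and the unchosen Nudt16l1 ranked 1 (0.20, SE 0.11). The 2 probe sets of the unchosen Carhsp1 ranked 2 and 5 by size and disagreed in sign (0.19, SE 0.20, and -0.19, SE 0.13). Probe sets were placed by the position of their gene, and where their own probes lie was not checked. Of the 89 probe sets that were not chosen, 5 (5.62%) had an unadjusted p under 0.05 for that difference, against 852 of 21780 (3.91%) over all, and 2 of the 5 were higher. In standard cages that count was 0 of 89, against 0.987% of all, and in enrichment 5 of 89 (5.62%), against 5.23% of all. By distance, 1 of 30 unchosen probe sets under 1 Mb (3.33%), 2 of 12 at 1 to 5 Mb (16.7%) and, Ercc4 included, 3 of 48 at 5 to 10 Mb (6.25%) were under it, and 24 of 603 farther along the chromosome (3.98%). With the chosen genes included, the count under 1 Mb was 3 of 39 (7.69%), which the choice of genes used. The median averaged difference of the 89 was -0.0023, against -0.0095 over all. All 8 pairs were higher for 1 of the 89 (1.12%, Mettl22) and lower for 1 (1.12%, Grin2a). Over all probe sets these shares were 1.02% and 0.927%, so nothing about the neighbourhood is read from the counts. Grin2a, which encodes a subunit of the NMDA receptor, was singled out after its values were seen.

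Unchosen neighbours with the smallest p upward were Mettl22, which encodes a methyltransferase-like protein (0.17, SE 0.060, 8 of 8 pairs higher), and Pmm2, which encodes an enzyme of protein glycosylation (0.19, SE 0.066, 6 of 8 pairs). Both lie over 4 Mb from Crebbp, with gaps of 4257 and 4424 kb. They were named for these values, so the numbers are a description. Downward, Gm10832 differed by -0.14 (SE 0.058), the septin gene Septin12 by -0.070 (SE 0.029) and Nde1, which encodes a dynein-binding protein of dividing neural progenitors, by -0.11 (SE 0.051). Next in order stood Nudt16l1 (0.20, SE 0.11), Pam16 and Rogdi (0.14, SE 0.12) upward and Mir484 (-0.076, SE 0.039) and Tmem114 (-0.10, SE 0.052) downward. Nearest to Crebbp after the chosen genes were Nlrc3 (-0.036, SE 0.051), Cluap1 (0.079, SE 0.083) and 1700037C18Rik (0.012, SE 0.069) on 1 side, and Pam16, Coro7 (0.044, SE 0.11) and Vasn (-0.025, SE 0.059) on the other. The 2 probe sets of Pam16, which encodes a part of the mitochondrial import motor, differed by 0.14 (SE 0.080) and 0.073 (SE 0.056). Just beyond the limit, at 10.1 Mb, Cep20 differed by 0.17 (SE 0.12), against 0.16 (SE 0.050) for Ercc4, the chosen gene nearest to it on the inside.

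**Figure D3:**
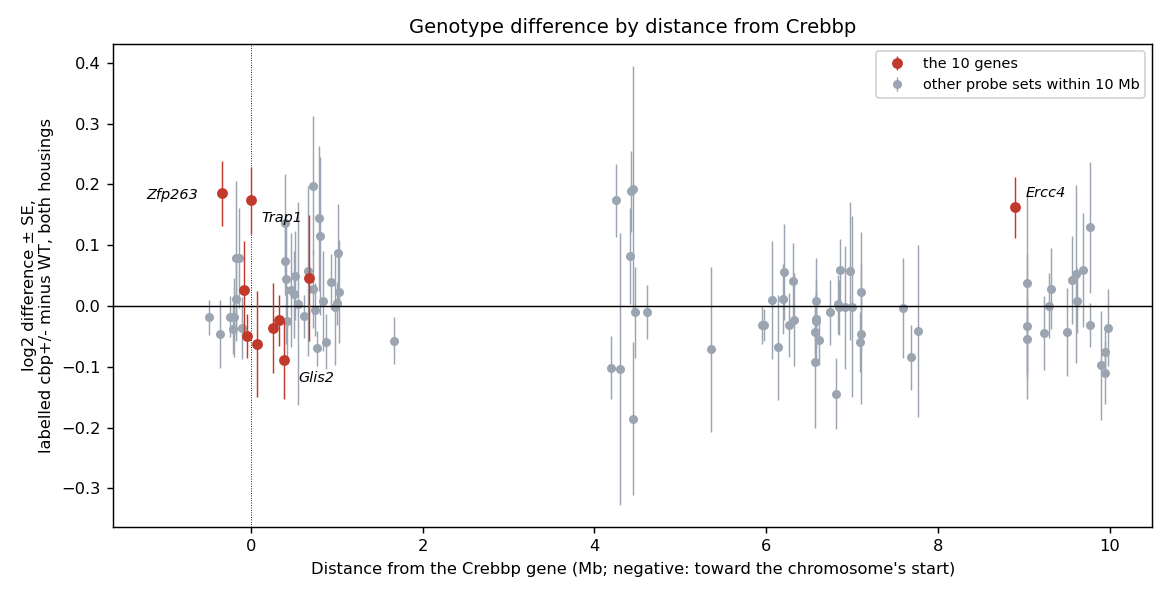
Averaged genotype difference (log2, labelled cbp+/- minus wild type, with SE bars) of the 99 probe sets within 10 Mb, against their distance from Crebbp in Mb. Red points are the 10 genes and grey points the 89 others. Zfp263, Trap1 and Ercc4 lie between 0.16 and 0.19. Above 0 lie 41 of the 89 grey points, against 43.3% of all probe sets.

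Among all other genes, those whose levels over the 16 arrays were most like Zfp263 lay on other chromosomes. Most candidates did, since besides Crebbp only 99 probe sets in the window and 603 farther along, of 21780, were placed on chromosome 16. Nothing about position is read from it. They were Tmem208 on chromosome 8 (Pearson r = 0.883, Spearman rho = 0.800), Rgs19 on chromosome 2 (r = 0.825, rho = 0.803) and Vtn on chromosome 11 (r = 0.820, rho = 0.809), and these points share arrays and array sets. Among the 45 pairs of the 10 genes, r ran from -0.565 for Glis2 with Ercc4 to 0.821 for Slx4 with Mgrn1. Zfp263 with Trap1 had an r of 0.580.

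Housing itself was not compared in the rule that chose the genes, and the enrichment response was tested. The rule did use genotype differences in both housings, which rest on the same standard-cage and enrichment arrays. The p-values below are therefore not fully independent of the choice. None of the 10 genes passed, with 0 of 10 at an adjusted p under 0.05 in either genotype with limma, as for all probe sets (0 of 21780, 0%). At an unadjusted p under 0.05 there was 1 of 10 on arrays labelled cbp+/-, against 2.82% of all probe sets, and 2 of 10 in wild type, against 17.8% of all. The 1 was Tfap4, higher in enrichment (1.54% of all higher, 1.29% lower), and the 2 were Ercc4 and Trap1, lower in enrichment (3.72% of all lower, 14.1% higher). Groups did not overlap for 1 of 10 on arrays labelled cbp+/- (1.64% of all with enrichment above, 1.25% below) and for 0 of 10 in wild type (9.16% above, 2% below). The median difference of the 10 was 0.0077 on arrays labelled cbp+/- (0.0096 over all probe sets) and -0.018 in wild type (0.029 over all).

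In wild type, Ercc4 averaged 6.97 ± 0.14 on the 3 enrichment arrays and 7.21 ± 0.10 on the 5 from standard cages, and limma's difference was -0.25 (SE 0.070, adjusted p = 0.137). Trap1 averaged 8.61 ± 0.21 on the enrichment arrays and 8.82 ± 0.026 on those from standard cages, and differed by -0.22 (SE 0.078, adjusted p = 0.190), or -0.10 without WT_EE_3. Some arrays overlapped in both. The same WT_EE arrays stand on the low side of the enrichment genotype difference of these genes, so both results share those arrays. Since the choice of genes used that difference, the wild-type p-values of Ercc4 and Trap1 are not independent of it. By array set, Ercc4 differed by -0.25 and -0.20 in sets 1 and 4, and Trap1 by -0.088 and -0.46. On arrays labelled cbp+/- the differences were -0.097 (SE 0.070, adjusted p = 0.999) for Ercc4 and 0.048 (SE 0.078, adjusted p = 0.999) for Trap1. The difference between both housing responses was 0.15 (SE 0.10) for Ercc4 and 0.26 (SE 0.11) for Trap1. It is made of the same genotype differences that the choice of genes used and is therefore given with no test. Over all probe sets 0% passed the adjusted threshold for it, and 2.66% had an unadjusted p under 0.05 (0.372% higher, 2.29% lower), as 1 of the 10 (Trap1) did, a count from which nothing is read.

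Tfap4 on arrays labelled cbp+/- was at 6.44 ± 0.043 in enrichment and 6.30 ± 0.061 in standard cages, and differed by 0.14 (SE 0.060, adjusted p = 0.999). All 3 enrichment arrays lay above all 5 standard-cage arrays. The same CBP_SC arrays stand on the low side of the standard-cage genotype difference of Tfap4, which the choice of genes used. This housing result is therefore not independent of the choice. In wild type Tfap4 differed by -0.0043 (SE 0.060, adjusted p = 0.976). Adcy9 differed by -0.23 (SE 0.12, adjusted p = 0.999) on arrays labelled cbp+/- and -0.22 (SE 0.12, adjusted p = 0.368) in wild type. Array sets 2 and 3, which hold no enrichment array, had the highest Adcy9, and with sets as a block the differences were -0.082 and -0.074. Glis2 differed by 0.17 (SE 0.091) and 0.023 (SE 0.091), and Dnase1 by 0.090 (SE 0.051) and 0.069 (SE 0.051), on arrays labelled cbp+/- and in wild type in that order. The remaining 4 genes (Zfp263, Slx4, Srl and Mgrn1) had differences from -0.13 to 0.047 on arrays labelled cbp+/- and from -0.18 to 0.0014 in wild type.

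**Figure D4:**
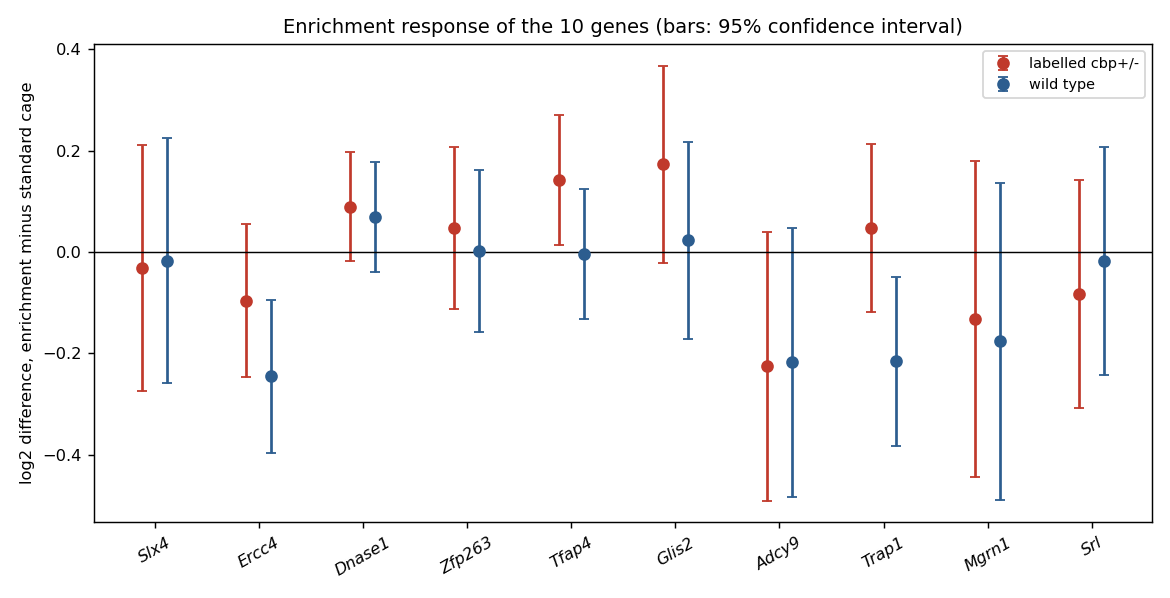
Enrichment response of the 10 genes (log2 difference, enrichment minus standard cage) on arrays labelled cbp+/- (red) and in wild type (blue), with 95% confidence intervals from limma. The wild-type intervals of Ercc4 and Trap1 and the cbp+/- interval of Tfap4 leave out 0 before adjustment for the number of probe sets.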

How the data were processed

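Hippocampal RNA was measured on 16 Affymetrix Mouse Gene 1.0 ST arrays, each an independent pool of 4 mice. Each deposited value is a linear intensity, with array medians of 76.7 to 85.46. GeneSpring GX made them per the labels' protocols, with RMA per the submitters' processing notes; the sources used here state neither a baseline transformation nor the build of the array. Groups and numbers came from the titles. Of 28815 probe sets, 21780 had 1 gene symbol (1605 had several and 5430 were unnamed here) and were tested with no filter on low values. RefSeq (GRCm38.p6) matched 21689 of them and gave promoters and the distances between gene ends.

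Log2 of the intensity was fitted with limma 3.58.1 (R 4.3.3), with 1 mean per group over all arrays and eBayes, and Benjamini-Hochberg adjustment ran over all 21780. The averaged genotype difference weights both housings equally. Named genes are the 10, Crebbp, the 3 nearest other genes per side, the gene just beyond the window, those with the smallest p per direction, the 3 most like Zfp263 and the largest of each role list. Carhsp1 and Grin2a were added after their values were seen. The genes and lists were chosen with earlier results of these data known. Array sets are 4 clusters (Ward linkage, 1 minus Pearson's r). Same-numbered arrays of both genotypes deviated together from their group means (r = 0.257 to 0.767 in the 8 pairs), so numbers were taken as pairs within a housing. In 2 pairs the array labelled cbp+/- correlated better with another number (CBP_SC_1 0.621 against 0.593, CBP_EE_2 0.663 against 0.306). The main fit has no term for pairs, so its SE, p and ranks ignore them, and only pair counts and pair differences use them. For Adcy9 the 8 pair differences had a mean of -0.061 and an SD of 0.071, while the averaged difference had an SE of 0.088. In simulated data with 200 of 21780 probe sets changed, of which 100 by 0.5 log2, the fit recovered 68% of those 100 in the standard-cage genotype comparison and 50% in the enrichment one. The simulated noise was independent between arrays, with no pairs or array sets. The planted 0.5 is also larger than every genotype difference of the 10 genes, of which Trap1 in enrichment had the largest at 0.31. The rates therefore do not show how often differences of the sizes seen here would be found. Few arrays per group limit the precision.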

Additional observations from a re-analysis of the deposited data

How the results depend on the processing

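The number of arrays limits these results, and RMA values carry no detection call to set signal against background. The count of 0 of the 10 genes past the adjusted threshold held in each genotype and housing comparison under quantile normalization, without dim probe sets, over all deposited probe sets, with array sets as a block, with the replicate block, with a variance trend, with only the groups compared and with each array left out in turn. It did not hold with array weights, where 1 passed for genotype in enrichment (Trap1, 0.20), 2 for housing on arrays labelled cbp+/- (Dnase1, 0.10, adjusted p = 0.049, and Tfap4, 0.18, adjusted p = 0.0212) and 2 for housing in wild type (Dnase1, 0.12, adjusted p = 0.0188, and Ercc4, -0.14, adjusted p = 0.0465). The genotype difference of Trap1 was among those that the choice of genes used, so its passing is no test of Trap1. Over all alternatives the adjusted p of Ercc4 in wild type ran from 0.0465 to 0.697. These weights rest the enrichment groups mostly on CBP_EE_1 (8.63) and WT_EE_2 (6.68). With them, 2474 probe sets passed for genotype in enrichment, 152 for the averaged genotype difference, 1039 for housing in cbp+/-, 5254 for housing in wild type and 429 for the interaction, against 0 in each as reported. For housing in wild type, 36 passed over all deposited probe sets, 100 with the variance trend, 15 with sets as a block, 3 without CBP_SC_3, 7 without CBP_EE_2 and 19 without CBP_EE_3. The averaged genotype difference had 1 with sets as a block. Without dim probe sets, which keeps 6 of the 10 genes, the wild-type housing median was -0.20. The replicate block left the averaged difference of Zfp263 at 0.19 and changed no call.

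Wild-type housing differences turned sign for Zfp263 and Dnase1 with quantile normalization (-0.053 and -0.021), for Zfp263, Slx4, Srl and Tfap4 with sets as a block (-0.014, 0.071, 0.088 and 0.030), for Slx4, Srl, Tfap4 and Mgrn1 with array weights (0.10, 0.044, 0.067 and 0.045), for Zfp263 and Tfap4 with the replicate block (-0.022 and 0.0038), and for Zfp263, Slx4, Srl and Tfap4 in array sets 1 and 4 alone (-0.00987, 0.017, 0.097 and 0.058), an alternative chosen after seeing the data. On arrays labelled cbp+/- they did so for Slx4, Srl and Mgrn1 with sets as a block (0.057, 0.023 and 0.00111) and in sets 1 and 4 alone (0.11, 0.014 and 0.018), and for Zfp263, Slx4 and Srl with array weights (-0.00829, 0.077 and 0.057). Without single arrays, wild-type values ran from -0.062 to 0.046 for Zfp263, -0.094 to 0.059 for Slx4, -0.053 to 0.032 for Srl, -0.037 to 0.040 for Tfap4 and -0.068 to 0.071 for Glis2, and cbp+/- values from -0.12 to 0.037 for Slx4 and -0.013 to 0.0925 for Zfp263. The cause was not tested. Without single arrays, genotype differences of Zfp263, Trap1, Ercc4 and Tfap4 kept their sign in both housings, and in enrichment they ran from 0.15 to 0.27 for Zfp263, 0.19 to 0.40 for Trap1 and 0.19 to 0.32 for Ercc4. The other 6 turned sign in at least 1 housing. In standard cages they ran from -0.034 to 0.12 for Slx4, -0.13 to 0.024 for Adcy9, -0.076 to 0.050 for Srl and -0.082 to 0.093 for Mgrn1, and in enrichment from -0.057 to 0.097 for Slx4, -0.070 to 0.011 for Dnase1, -0.062 to 0.077 for Glis2 and -0.070 to 0.16 for Mgrn1.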
